A study of Mus musculus with 8 samples.

Results

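The genes described here are 8 transcription factors of epithelial-mesenchymal transition (EMT), *Twist1*, *Twist2*, *Snai1*, *Snai2*, *Zeb1*, *Zeb2*, *Prrx1* and *Prrx2*, with *Vim* and *Fn1*, which encode 2 proteins used as signs of the mesenchymal state. They were taken by name from a table of 30890 genes, and all 10 were among the 16723 genes kept by the filter on low counts. The list was chosen by what is known of EMT and with the difference between treated and control kidneys in view, so the values of that difference are given for these genes as a description, without tests. The study cultured kidneys of C57BL/6 mouse embryos at E12.5 (E stands for embryonic day) for 72 h with CHIR99021 at 5 µM or with DMSO at 0.1%, with 4 samples in each group. CHIR99021 inhibits glycogen synthase kinase 3 (GSK-3) and thereby raises Wnt/β-catenin signaling, and DMSO is its solvent. By the study's methods each embryo gave its left kidney as a control and its right kidney for treatment, and kidneys whose Wnt target genes did not respond were not kept. No allele or transgene is named in the labels, and culture outside the body was common to both groups.

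EMT is a change in which cells lose their junctions and polarity and become motile, and it is run by transcription factors of several families. Snail and Zeb zinc finger proteins bind E-box sequences and repress epithelial genes such as *Cdh1*, Twist proteins are basic helix-loop-helix (bHLH) factors that bind DNA with E proteins, and the Prrx proteins are homeodomain factors of connective tissue precursors. In the embryonic kidney the stroma is mesenchymal, the ureteric bud is an epithelium, and the nephron progenitors go the opposite way, from mesenchyme to epithelium.

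Each sample held 14599082 to 17751992 counts. The 11 Wnt target genes used to check the treatment, among them *Axin2*, *Lef1* and *Notum*, were all higher with CHIR99021, with a summed level of 244 to 275 CPM (counts scaled to a common library size) with DMSO and 2864 to 3282 CPM with CHIR99021, although the kidneys had been selected on such genes. Mitochondrial genes took 2.47 to 3.20% of counts with DMSO and 3.48 to 4.14% with CHIR99021. Over all tested genes, 48.7% passed an adjusted p of 0.05 in edgeR's quasi-likelihood test, 23.7% as higher and 25% as lower with CHIR99021. This fit had group as its only term and did not use the pairing of the kidneys. The material was whole kidney, in which more cells of a type cannot be told apart from more RNA per cell, and which cells held the RNA of a gene was not measured.

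The 10 genes lie on 5 chromosomes of GRCm38, with *Snai1*, *Zeb2*, *Prrx2* and *Vim* on chromosome 2 and *Twist2*, *Prrx1* and *Fn1* on chromosome 1. In the RefSeq promoter table for GRCm38.p6, which spans 250 bases before to 50 after each start, 7 of the 10 genes had 10 promoters, 4 of them of *Zeb2*. The bases before the start are shown for *Twist1*, *Twist2* and *Snai1*, 3 factors from the set with larger differences between the groups whose RefSeq start is also the gene's start in the count table. They are written 5′ to 3′, with capitals for the E-box CACCTG.
Twist1, chr12:33957421-33957670, plus strand: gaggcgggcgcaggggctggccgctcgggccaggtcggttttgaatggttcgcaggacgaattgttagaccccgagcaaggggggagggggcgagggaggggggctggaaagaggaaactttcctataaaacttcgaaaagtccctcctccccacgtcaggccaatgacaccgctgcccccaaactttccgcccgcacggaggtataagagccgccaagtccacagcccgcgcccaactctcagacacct
Twist2, chr1:91801211-91801460, plus strand: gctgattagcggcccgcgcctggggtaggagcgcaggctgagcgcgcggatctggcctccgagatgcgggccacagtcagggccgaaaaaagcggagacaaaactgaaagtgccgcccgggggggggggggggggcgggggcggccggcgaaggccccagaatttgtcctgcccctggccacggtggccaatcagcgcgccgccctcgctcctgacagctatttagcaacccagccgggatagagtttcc
Snai1, chr2:167537945-167538194, plus strand: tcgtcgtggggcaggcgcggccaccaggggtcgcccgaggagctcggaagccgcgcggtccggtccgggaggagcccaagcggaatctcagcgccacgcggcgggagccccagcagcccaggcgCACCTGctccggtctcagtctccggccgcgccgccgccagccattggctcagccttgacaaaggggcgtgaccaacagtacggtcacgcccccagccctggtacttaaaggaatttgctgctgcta

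The E-box CACCTG, the sequence that Snail and Zeb proteins bind, was found on either strand once among the 10 promoters, in that of *Snai1*, where it begins 126 bases before the start. It was present in 20.2% of the 32851 promoters in the table. No TCF/LEF word (CTTTGAA or CTTTGTT or CTTTGAT or CTTTGTA, on either strand) was found in the 10 promoters, against 16.9% of all promoters. The E-boxes CATATG and CATCTG, which Twist dimers can bind, were likewise not found in the 10, and 20.3% of all promoters held one of them. No word searched is part of another, and the searches say only that the words were not in these windows. The *Zeb2* windows at chr2:45113204-45113503 and chr2:45113230-45113529 overlap for most of their length, so the 10 promoters are not all separate sequences. The promoters of *Prrx2*, *Snai1*, *Twist1* and *Twist2* were rich in G and C, at 70.3%, 70.0%, 66.0% and 64.7%, with 28, 34, 27 and 25 CpG dinucleotides. That of *Prrx1* held 47.7% G and C and 6 CpG, and the median of all promoters was 52.7% with 7 CpG.

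The members fell into a set of 6 with larger and a set of 4 with smaller differences. The mean level of *Twist1*, *Prrx2*, *Prrx1*, *Snai1*, *Twist2* and *Fn1* was 1.95 to 6.79 times as high with CHIR99021 as with DMSO, while that of *Zeb2*, *Snai2*, *Zeb1* and *Vim* was 1.11 to 1.28 times as high. All 10 were higher with CHIR99021 in 4 of 4 pairs of equal replicate number in CPM after scaling by trimmed mean of M-values (TMM), although *Vim* changed direction, to a log2 difference of -0.08, with quantile normalization. The edgeR fit called 8 of the 10 higher and 0 lower, where 23.7% of all tested genes were called higher and 25% lower. *Snai2* and *Vim* were not called. With the replicate number as a block all 10 were called higher, together with 4096 genes over the whole table. The CPM ranges of the groups did not overlap for 7 of the 10, against 46.1% of all tested genes. These counts follow from how the list was chosen, and nothing is read from them.

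**Figure D1:**
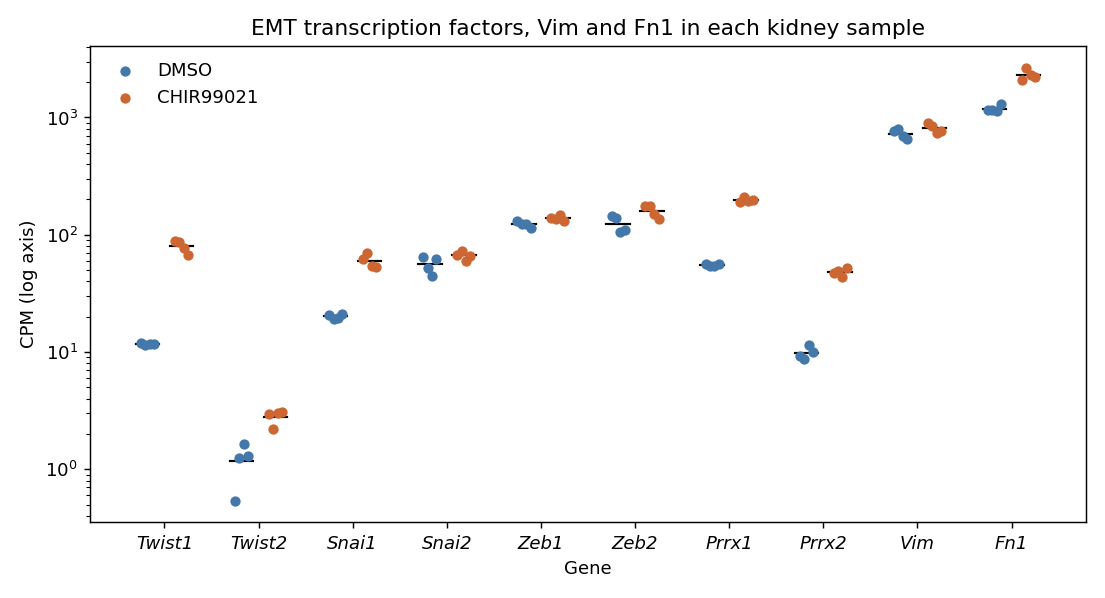
Level of each of the 10 genes in CPM on a log axis, with 1 point for each of the 4 DMSO and 4 CHIR99021 samples and a bar at the group mean. The groups stand apart for *Twist1*, *Snai1*, *Prrx1*, *Prrx2*, *Fn1*, *Twist2* and, by a narrow gap, *Zeb1*, and they overlap for *Snai2*, *Zeb2* and *Vim*.

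*Twist1* (ENSMUSG00000035799, chr12:33957671-33959829, plus strand), a bHLH factor of cranial and limb mesenchyme, had the largest difference of the 10. DMSO replicates 1 to 4 had 11.96, 11.5, 11.8 and 11.8 CPM. CHIR99021 replicates 1 to 4 had 88.6, 86.4, 77.0 and 67.2 CPM. All 4 treated samples were far above all 4 controls, and the controls were nearly identical to each other while the treated samples were spread. The means were 11.7 ± 0.199 and 79.8 ± 9.76 CPM (SD, n = 4), a ratio of 6.79 and a log2 difference of 2.76 with a standard error (SE) of 0.090. Of all tested genes, 0.975% had a larger log2 difference than *Twist1*. The values rest on 803 counts with DMSO and 4806 with CHIR99021.

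*Twist2* (ENSMUSG00000007805, chr1:91801461-91848028, plus strand), the close relative of *Twist1* that is known from dermal precursors, was near the lower end of detection. It had 0.541, 1.26, 1.64 and 1.31 CPM in DMSO replicates 1 to 4. With CHIR99021 it had 2.93, 2.21, 3.01 and 3.09 CPM. The groups did not overlap, and DMSO replicate 1 was the lowest sample with 10 counts. The log2 difference was 1.25 with an SE of 0.29, the largest SE of the 10, on 80 counts with DMSO and 169 with CHIR99021. It was 1.00 to 1.44 with each sample left out in turn, and 0.41 on the log2(FPKM + 1) scale, which understates differences of low genes. Of the exon bases of *Twist2*, 46.5% are shared with the antisense gene *Gm29100*, which had 0.514 ± 0.0624 CPM with DMSO and 0.920 ± 0.171 CPM with CHIR99021 (log2 difference 0.83, adjusted p = 0.0311, edgeR's quasi-likelihood test). The sources used here do not say if the counting used strand, so reads of the 2 genes may not have been told apart.

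*Snai1* (ENSMUSG00000042821, chr2:167538195-167542814, plus strand) encodes Snail, a repressor whose protein is marked for degradation by GSK-3. Its levels were 20.8, 19.2, 19.6 and 21.2 CPM in DMSO replicates 1 to 4. They were 61.8, 70.2, 54.4 and 52.6 CPM with CHIR99021. Every treated sample was above every control, with CHIR99021 replicate 2 the highest. The means were 20.2 ± 0.971 and 59.7 ± 8.00 CPM, and the log2 difference was 1.56 with an SE of 0.091. RNA levels do not show the stability of the protein.

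*Snai2* (ENSMUSG00000022676, chromosome 16, from base 14705852, plus strand) encodes Slug, the second Snail-family repressor, and differed little. The DMSO samples had 65.1, 51.8, 44.3 and 62.4 CPM. The CHIR99021 samples had 67.6, 73.1, 59.7 and 66.5 CPM. The groups overlapped, since DMSO replicates 1 and 4 were above CHIR99021 replicate 3. The log2 difference was 0.26 with an SE of 0.12 and ranged from 0.05 to 0.49 over the 4 pairs.

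*Prrx1* (ENSMUSG00000026586, chr1:163245119-163313710, minus strand), a homeobox gene of limb bud and craniofacial mesenchyme, had the smallest SE of the 10. It stood at 56.8, 54.0, 53.7 and 56.4 CPM in DMSO replicates 1 to 4. It stood at 191, 211, 193 and 197 CPM with CHIR99021. The separation of the groups was many times the spread within them. The log2 difference was 1.84 with an SE of 0.049, a ratio of 3.59, and the log2 differences of the pairs ranged from 1.75 to 1.97.

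*Prrx2* (ENSMUSG00000039476, chr2:30834972-30881251, plus strand), the paralogue of *Prrx1*, had a lower count and a larger ratio. The DMSO samples had 9.20, 8.68, 11.5 and 10.01 CPM. The CHIR99021 samples had 47.3, 49.3, 43.5 and 51.7 CPM. The groups were far apart, and DMSO replicate 3 was the highest control. The log2 difference was 2.29 with an SE of 0.093, a ratio of 4.87, and the pairs ranged from 1.91 to 2.49.

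*Zeb1* (ENSMUSG00000024238, chromosome 18) and *Zeb2* (ENSMUSG00000026872, chr2:44983632-45117395, minus strand) encode large zinc finger homeobox repressors. *Zeb1* had 131, 123, 123 and 114 CPM in DMSO replicates 1 to 4 and 139, 135, 146 and 132 CPM with CHIR99021. *Zeb2* had 144, 138, 106 and 109 CPM with DMSO and 176, 177, 150 and 136 CPM with CHIR99021. For *Zeb1* the groups were separated by a very narrow gap, and for *Zeb2* they overlapped, with CHIR99021 replicate 4 below DMSO replicates 1 and 2. The log2 differences were 0.17 with an SE of 0.053 for *Zeb1* and 0.36 with an SE of 0.13 for *Zeb2*. Both calls were lost in several other settings, among them upper-quartile scaling, where the log2 differences were 0.12 and 0.31. The total count of *Zeb1* was 8415 with DMSO and 8292 with CHIR99021, so its higher level appeared only after the samples were scaled. Of their exon bases, 1.93% of *Zeb1* are shared with *Gm10125* and 3.27% of *Zeb2* with *Zeb2os*, both on the opposite strand.

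*Vim* (ENSMUSG00000026728, chr2:13573927-13582826, plus strand) encodes vimentin, the intermediate filament protein of mesenchymal cells. The DMSO samples had 768, 795, 694 and 656 CPM. The CHIR99021 samples had 896, 841, 741 and 764 CPM. The groups overlapped, since CHIR99021 replicates 3 and 4 were below DMSO replicates 1 and 2. The log2 difference was 0.15 with an SE of 0.075. The total count of *Vim* was 49993 with DMSO and 48862 with CHIR99021, so its direction rested on the scaling of the samples.

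*Fn1* (ENSMUSG00000026193, chr1:71585520-71653200, minus strand) encodes fibronectin, a glycoprotein of the extracellular matrix that is also a plasma protein made by liver. It had 1162, 1162, 1134 and 1291 CPM in DMSO replicates 1 to 4. With CHIR99021 it had 2074, 2664, 2305 and 2208 CPM. The groups did not overlap, and CHIR99021 replicate 2 was the highest sample. The log2 difference was 0.96 with an SE of 0.075, and it was 0.55 with quantile normalization. Liver genes such as *Alb* and *Afp* summed to 1344 and 961 CPM in DMSO replicates 2 and 4, to 58.5 and 8.55 CPM in the other controls and to 1.31 to 8.05 CPM with CHIR99021. Without those 2 controls the log2 difference of *Fn1* was 1.00.

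**Figure D2:**
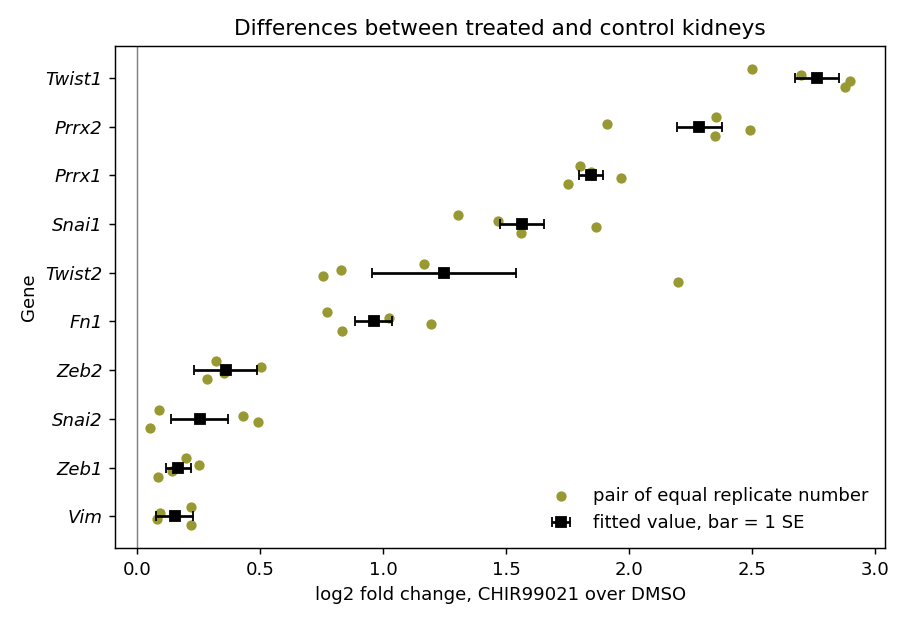
Log2 fold change of CHIR99021 over DMSO for each gene, with the fitted value of edgeR as a square, its SE as a bar and each of the 4 pairs of equal replicate number as a point. All points lie to the right of 0 under TMM scaling, from 2.501 to 2.90 for *Twist1* down to 0.08 to 0.22 for *Vim*, whose fitted value was -0.08 under quantile normalization.

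The pairs did not vary alike for all genes. *Twist2* ranged from 0.76 to 2.20 over the pairs, the widest range of the 10, and *Zeb1* from 0.09 to 0.25. Pair 2 had the largest difference of the 4 pairs in 6 of the 10 genes. The median log2 difference of the 10 was 1.10, against 0.00 for all tested genes. Nothing is read from this, since the list was chosen with the difference between the groups in view.

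The levels of different genes were compared per length, as fragments per kilobase of gene scaled to library size (FPKM). In the DMSO kidneys *Vim* had the highest level, with 161 ± 13.4 FPKM, followed by *Fn1* with 106 ± 6.28 FPKM. Among the factors *Snai2* was highest with 28.8 ± 4.86 FPKM. *Snai1* followed at 13.03 ± 0.626 FPKM, and its samples overlapped those of *Zeb1*, at 11.7 to 13.3 FPKM. *Twist1* at 7.55 ± 0.149, *Zeb2* at 6.52 ± 1.01, *Prrx2* at 5.25 ± 0.690 and *Prrx1* at 5.22 ± 0.142 FPKM formed a run in which each gene overlapped the next. *Twist2* was the lowest, at 0.391 ± 0.154 FPKM. Each gene was tested against the next in this order by an exact two-sided sign-flip permutation test over the 4 samples, which cannot go below p = 0.125. That value was reached by 6 of the 9 neighbouring pairs, with an adjusted p of 0.188 over the 9, while *Snai1* against *Zeb1* and *Zeb2* against *Prrx2* gave p = 0.375 and *Prrx2* against *Prrx1* gave p = 0.875 in the same exact test (adjusted p = 0.422 and 0.875).

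In the CHIR99021 kidneys the order was different. *Fn1*, at 188 ± 19.9 FPKM, stood above *Vim*, at 163 ± 13.6 FPKM, with overlapping samples. *Twist1* was the highest factor at 46.7 ± 5.43 FPKM, overlapping *Snai1* at 35.1 ± 4.48 FPKM, which overlapped *Snai2* at 31.3 ± 2.48 FPKM. *Prrx2* at 23.3 ± 1.75, *Prrx1* at 17.1 ± 0.730, *Zeb1* at 12.8 ± 0.568, *Zeb2* at 7.63 ± 0.915 and *Twist2* at 0.844 ± 0.126 FPKM followed, each apart from the next. In the exact test the smallest p was again 0.125 (adjusted p = 0.161), and *Fn1* against *Vim* and *Snai1* against *Snai2* gave p = 0.25. The treated levels are part of the contrast that the list was chosen on, and the same samples set the order. Nothing is therefore read from these p-values. The summed level of the 8 factors was 73.4 to 85.7 FPKM with DMSO and 165 to 189 FPKM with CHIR99021. *Twist1* made up 8.93 to 10.4% of that sum in the controls and 24.1 to 28.6% in the treated kidneys.

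**Figure D3:**
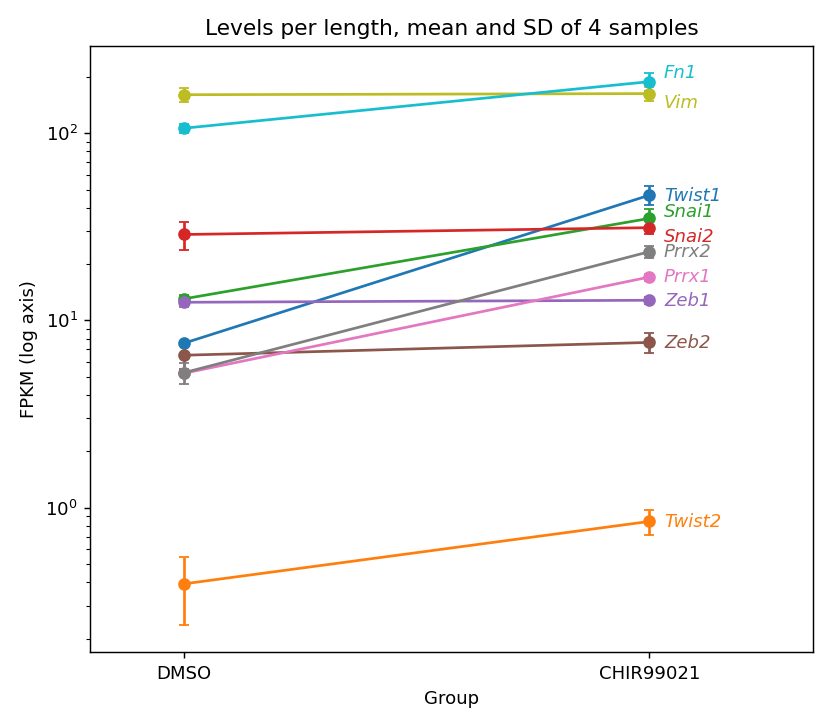
Mean level of each gene in FPKM on a log axis in the DMSO and CHIR99021 groups, with bars for 1 SD over 4 samples. The lines of *Prrx1* and *Prrx2* start below those of *Zeb1* and *Zeb2* and end above them, at 17.1 and 23.3 against 12.8 and 7.63 FPKM, and the line of *Twist1* crosses that of *Zeb1*.

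On this scale the 4 genes with small differences were closer to equal between the groups. The ratio of mean FPKM was 1.01 for *Vim*, 1.03 for *Zeb1*, 1.09 for *Snai2* and 1.17 for *Zeb2*. It was 6.19 for *Twist1*, 4.44 for *Prrx2*, 3.27 for *Prrx1*, 2.69 for *Snai1*, 2.16 for *Twist2* and 1.77 for *Fn1*. The median log2 difference of all tested genes was -0.13 on the log2(FPKM + 0.1) scale and 0.00 in the main fit, so FPKM ratios sit lower throughout.

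The balance within the paralogue pairs was set apart between the groups for Snail and Prrx and not for Zeb. The FPKM ratio of *Snai1* to *Snai2* was 0.461 ± 0.067 with DMSO and 1.12 ± 0.090 with CHIR99021, with no overlap. The ratio of *Prrx2* to *Prrx1* was 1.01 ± 0.139 and 1.37 ± 0.092, also with no overlap. The ratio of *Twist1* to *Twist2* ranged from 14.0 to 43.1 with DMSO and from 42.4 to 76.2 with CHIR99021, an overlap in which the highest control was DMSO replicate 1 with its 10 *Twist2* counts. The ratio of *Zeb1* to *Zeb2* was 1.95 ± 0.252 and 1.70 ± 0.219 with overlapping samples. No identical stretch of 50 exon bases was shared within any of these pairs. Stretches that differ by a few bases were not searched, so reads placed on the wrong paralogue were not tested for. These ratios come from the contrast that the list was chosen on and were not tested.

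The tested genes next to each member on either side were not used to choose it. Of these 20 neighbours 9 were higher, 1 was lower and 10 were not called by edgeR's quasi-likelihood test, where 23.7% of all tested genes were higher and 25% lower. The values that follow are log2 differences. The neighbours of *Twist1* did not pass it: *Hdac9*, a histone deacetylase gene, had a log2 difference of -0.18 (adjusted p = 0.0583) and *Twistnb* one of 0.08 (adjusted p = 0.334). On either side of *Twist2*, *Hdac4* rose by 0.50 (adjusted p = 2.5e-05) and *Asb1* by 0.44 (adjusted p = 0.00224). Beside *Prrx2*, *Ptges*, which encodes a prostaglandin E synthase, rose by 0.98 (adjusted p = 0.000123). Beside *Prrx1*, *Gorab* rose by 0.67 (adjusted p = 5.42e-06) and *Fmo2*, a flavin monooxygenase gene, fell by 2.65 (adjusted p = 6.5e-06). Beside *Snai1*, *Gm11476* rose by 2.15 (adjusted p = 0.000684) from a level of 0.312 CPM. Beside *Snai2*, which was itself not called, *Efcab1* rose by 0.996 (adjusted p = 0.00122) and *Abcc1* was not called. Neither neighbour of *Zeb1*, *Zeb2* or *Vim* was called. The named neighbours that were called lay from 8.22 kb (*Ptges*) to 346 kb (*Fmo2*) from the member, and *Twistnb* lay 516 kb away.

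Other genes of the EMT pathway were read from lists by role, in the same fit, with adjusted p over all tested genes, and a value beside a gene is its log2 difference. Over all genes 23.7% were called higher and 25% lower. For the partners and antagonists of Twist proteins, 6 of 9 tested genes rose and 1 fell, with a median log2 difference of 0.88 against 0.00 for all genes. The E protein genes *Tcf12* (0.99, SE 0.057, adjusted p = 3.36e-08) and *Tcf4* (0.94, SE 0.060, adjusted p = 8.21e-08) had the largest rises among the genes called. Their products pair with Twist proteins on DNA. The genes of the Id proteins, which bind E proteins without binding DNA, also rose, with *Id3* at 0.90, *Id4* at 0.88, *Id1* at 0.59 and *Id2* at 0.42. *Scx*, a bHLH factor of tendon, was the gene that fell, by 0.50 (adjusted p = 0.0202). *Tcf3*, the gene of the third E protein, had a log2 difference of 0.08 (adjusted p = 0.175).

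Corepressors recruited by Snail and Zeb proteins differed little. Of 17 tested genes 3 rose and 2 fell, with a median of 0.08. The deacetylase gene *Hdac1* rose by 0.37 (adjusted p = 4.43e-05) and the LIM protein gene *Limd1* by 0.20 (adjusted p = 0.0068). The histone methyltransferase gene *Ehmt2* fell by 0.23 (adjusted p = 0.00149) and *Sin3a* by 0.18 (adjusted p = 0.0157).

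Among genes that control the turnover of Snail and Twist proteins, 6 of 17 rose and 3 fell, with a median of 0.01. The kinase gene *Prkd1* rose by 0.63 (adjusted p = 0.00142) and the ubiquitin ligase gene *Fbxw7* by 0.58 (adjusted p = 1.18e-05). The small phosphatase genes *Ctdspl* and *Ctdsp1* fell by 1.37 (adjusted p = 2.4e-08) and 0.38 (adjusted p = 0.000137). *Gsk3a* and *Gsk3b*, whose products CHIR99021 inhibits, had log2 differences of 0.18 (adjusted p = 0.0166) and 0.15 (adjusted p = 0.0242).

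Of 15 genes for signals that induce EMT factors, 5 rose and 4 fell, with a median of 0.12. The ligand gene *Tgfb2* rose by 1.97 (adjusted p = 8.79e-10), from 42.8 ± 3.12 to 168 ± 15.8 CPM. *Hif1a*, the oxygen-regulated factor, rose by 0.46 (adjusted p = 2.52e-05). *Ets1* fell by 0.71 (adjusted p = 1.85e-05) and the TGF-β mediator gene *Smad3* by 0.54 (adjusted p = 2.03e-06).

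Of 14 related factors 8 could be tested, and 3 rose and 4 fell, with a median of -0.33. The T-box repressor genes *Tbx3* and *Tbx2* rose by 2.11 (adjusted p = 5.53e-07) and 1.57 (adjusted p = 1.89e-09). The homeobox gene *Alx4* fell by 1.81 (adjusted p = 0.00108) from a level of 1.29 CPM.

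**Figure D4:**
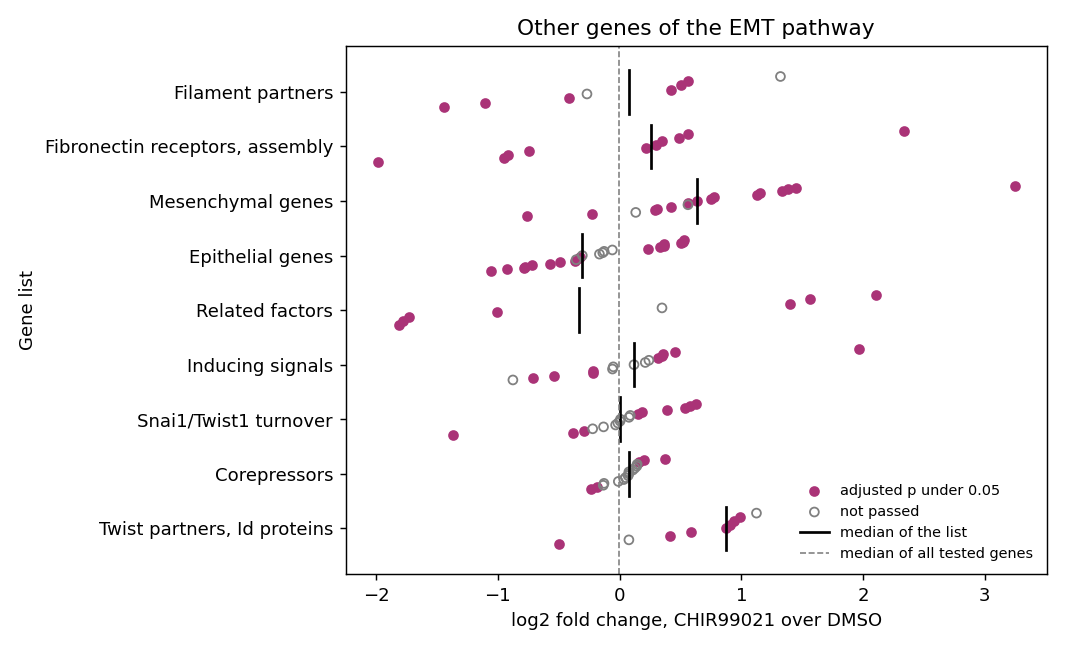
Log2 fold change of CHIR99021 over DMSO for each tested gene of 9 pathway lists, filled where the adjusted p was under 0.05, with a bar at each list's median and a dashed line at the median of all tested genes. The medians run from -0.33 for related factors to 0.88 for Twist partners and Id proteins, and every list holds genes on both sides of 0.

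The epithelial genes that EMT factors repress went both ways. Of 23 tested genes 7 rose and 10 fell, with a median of -0.31. *Cdh1*, which encodes E-cadherin, fell by 0.72 (adjusted p = 0.000619), from 185 ± 21.9 to 112 ± 16.1 CPM, and the keratin gene *Krt19* fell by 1.05 (adjusted p = 0.00101). *Ovol1*, a factor that opposes EMT, fell by 0.93 (adjusted p = 5.85e-05). *Epcam*, an epithelial adhesion gene, rose by 0.51 (adjusted p = 3.03e-05), the desmosome gene *Dsp* by 0.53 (adjusted p = 0.00099) and the claudin gene *Cldn4* by 0.52 (adjusted p = 0.0497). With log2(FPKM + 1) only 2 of the epithelial genes were called higher and 14 lower, and with the replicate block 6 were higher and 13 lower. Without DMSO replicates 2 and 4, 7 were higher and 6 lower.

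Mesenchymal genes beyond *Vim* and *Fn1* were mostly higher. Of 17 tested genes 13 rose and 2 fell, with a median of 0.64. *Thy1*, a surface glycoprotein gene, rose by 3.24 (adjusted p = 2.25e-06), from 37.2 ± 10.05 to 351 ± 24.6 CPM, and the galectin gene *Lgals1* rose by 1.45 (adjusted p = 8.57e-10). *Col1a1*, for collagen I, rose by 1.34 (adjusted p = 2.49e-05) and *Cdh2*, for N-cadherin, by 0.31 (adjusted p = 0.0176). *Fap*, a fibroblast protease gene, fell by 0.76 (adjusted p = 9.44e-06), and *Fbn1*, for fibrillin, by 0.23 (adjusted p = 0.00459).

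The receptors and matrix partners of fibronectin were called in both directions, 6 of 10 higher and 4 lower, with a median of 0.26. The matrix gene *Tnc* rose by 2.34 (adjusted p = 1.16e-09) and the integrin gene *Itgav* by 0.56 (adjusted p = 1.45e-05). *Itga4* fell by 1.99 (adjusted p = 3.01e-06), and *Tns1*, for the adhesion protein tensin, by 0.95 (adjusted p = 3.4e-06). Of 8 genes for filament partners of vimentin 3 rose and 3 fell, with a median of 0.08. The lamin gene *Lmna* rose by 0.56 (adjusted p = 9.12e-06) and the linker gene *Plec* by 0.51 (adjusted p = 1.89e-05). *Sync* and *Des*, genes of muscle-type filaments, fell by 1.44 (adjusted p = 0.00226) and 1.11 (adjusted p = 0.00802).

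Markers of cell types, of the kidney and of other tissues, moved beside these genes, and their part in the values was not tested. The 12 stromal markers summed to 1592 to 2018 CPM with DMSO and 2298 to 2689 CPM with CHIR99021, but 2 of them rose (*Pdgfra* by 1.19, *Postn* by 1.32) and 5 fell, among them *Foxd1*, the gene that defines stromal progenitors, by 0.53 (adjusted p = 0.0168). Smooth muscle markers summed to 212 to 320 CPM and 337 to 457 CPM, with 4 of 7 higher and 1 lower. Among them *Acta2*, for smooth muscle actin, rose by 1.62 (adjusted p = 0.00193) and *Myocd*, the master factor of smooth muscle, by 5.30 (adjusted p = 6.74e-08). *Rgs5* fell by 1.68 (adjusted p = 0.0014), from 133 to 41.4 CPM. *Myh11* (-0.17, adjusted p = 0.872) and *Actg2* (0.24, adjusted p = 0.706) were not called. Nephron progenitor markers summed to 1137 to 1390 CPM and 485 to 572 CPM, with 9 of 10 lower, and ureteric markers to 446 to 518 CPM and 203 to 217 CPM, with 7 of 9 lower. Endothelial markers summed to 515 to 712 CPM and 241 to 339 CPM, with 9 of 10 lower and 1 higher. Macrophage markers summed to 106 to 398 CPM and 29.8 to 75.9 CPM, with 11 of 11 lower. Markers of neural crest and glia (33.8 to 64.6 against 11.98 to 83.2 CPM, 1 of 5 lower) and of muscle and cartilage (84.1 to 106 against 33.5 to 72.2 CPM, 2 of 5 lower) were low. The 2 called for muscle and cartilage, *Myog* and *Matn1*, had means of only 2.96 and 2.12 CPM with DMSO. Of the liver markers 3 of 4 tested were lower, but their level differed widely among the controls. They summed to 1344 and 961 CPM in DMSO replicates 2 and 4 and to 58.5 and 8.55 CPM in the other controls. With CHIR99021 the liver markers summed to 1.31 to 8.05 CPM. Of the erythroid markers, at 8.33 to 27.4 against 7.24 to 16.8 CPM, 0 of 4 were called by edgeR.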

How the data were processed

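RNA of 8 cultured kidneys was sequenced as paired ends. After read cleaning the authors used HISAT2 2.0.5 (version from the submitters' processing notes) to align to GRCm38 and made the deposited counts per gene with featureCounts, as whole numbers without scaling. The deposited FPKM values put these counts per kilobase of gene and per library size. The deposited table also holds the authors' own fold changes and p-values, which were not used. The labels and the paper name different extraction and library kits.

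Genes were kept by filterByExpr (minimum count 10, minimum total 15), which left 16723 of 30890. Groups came from the labels and were compared in R 4.3.3 with edgeR 4.0.16 (TMM, glmQLFit with robust = TRUE, glmQLFTest, group as the only term), with Benjamini-Hochberg adjustment over all tested genes. CPM values are scaled by TMM. In simulated data on 16723 genes this step recovered 85% of genes changed by 1 and 94% of those changed by 2 on the log2 scale. The changed genes were drawn from those with a mean above 1 CPM and no pairs were simulated, so recovery of lower genes was not measured. Between 14599082 and 17751992 counts per sample set the precision, and the members had 10 to 39803 counts per sample. FPKM order was tested by exact sign-flip permutation. Alternatives used DESeq2 1.42.0, limma 3.58.1 (quantile normalized log2(count + 1), log2(FPKM + 1), log2(FPKM + 0.1)), other scalings and filters, and fewer samples. Gene locations are those of the count table, and overlaps come from GENCODE M21.

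The paper states that left and right kidneys of each embryo were paired, and both groups carry replicate numbers 1 to 4 in the labels. Samples of equal number correlated at 0.111 to 0.346 after removal of group means and others at -0.180 to 0.0766, so equal numbers were taken as pairs. The main fit did not use these pairs, and the fit with the replicate number as a block was an alternative. The members and lists were chosen with earlier results of these data known. The text names all members, and from each pathway list the 2 highest and 2 lowest genes that passed, of which 1 is not reported here; *Id1* to *Id4*, *Tcf3*, *Gsk3a*, *Gsk3b*, *Cdh1*, *Epcam*, *Col1a1*, *Cdh2*, the neighbours and the markers were named after their values were seen.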

Additional observations from a re-analysis of the deposited data

Results flagged for a closer look

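In 4 of the 90 groups of 4 samples examined, 1 sample stood apart from the other 3 by Dixon's test at the 95% level, which chance gives in about 1 in 20 groups, and none of these was a group of the 10 EMT genes. *Ehmt2* had 168.7 CPM in CHIR99021 replicate 4 and 152 to 154 CPM in the others. *Tbx3* had 230.1 CPM in CHIR99021 replicate 2 and 165 to 173 CPM in the others. *Fap* had 17.2 CPM in CHIR99021 replicate 1 and 19.7 to 20.1 CPM in the others. *Lmna* had 168.2 CPM in CHIR99021 replicate 2 and 151 to 153 CPM in the others.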

How the results depend on the processing

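Over 19 alternatives the edgeR, DESeq2 and limma fits called 6 to 10 members higher and 0 lower, and *Twist1*, *Prrx2*, *Prrx1*, *Snai1*, *Twist2* and *Fn1* kept direction and call in every one. The replicate block (equal replicate numbers, taken as pairs though the labels name no embryo) called 10 higher, adding *Snai2* (0.27) and *Vim* (0.15). With this block 6 epithelial genes were higher and 13 lower, and 7 inducing signals were higher and 5 lower. *Snai2* was also called without DMSO replicate 1 (0.34). *Zeb1* lost its call in 8 alternatives (0.03 to 0.17) and *Zeb2* in 12 (0.20 to 0.39), and *Vim* reversed to -0.0771 with quantile normalization. Of the 35 list genes that the naming rule took, 29 kept their call in each alternative that tested them (*Alx4* was not tested with the filter at 1 CPM in 4 samples), the exceptions being *Scx*, *Limd1*, *Sin3a*, *Cldn4*, *Fbn1* and *Des*. Of 8138 calls over all genes 48.6% were higher, against 41.5% with upper-quartile scaling, 29.5% with log2(FPKM + 1) and 29.2% with log2(FPKM + 0.1). Upper-quartile scaling called 5 turnover genes lower and 4 epithelial genes higher. Quantile normalization called 0 Twist partners lower, and 1 corepressor, 3 inducing signals and 3 epithelial genes higher. With log2(FPKM + 1) and log2(FPKM + 0.1) alike, 1 corepressor and 2 epithelial genes were higher, and 5 corepressors, 6 turnover genes and 7 inducing signals lower; log2(FPKM + 0.1) called 3 inducing signals higher. Without the filter 2 Twist partners were lower. Without DMSO replicates 2 and 4, 1 corepressor and 6 epithelial genes were lower. With pairs 1 and 3 alone 0 Twist partners, 1 corepressor, 6 epithelial and 1 mesenchymal gene were lower and 1 corepressor higher, on fewer samples. The cause of the other changes was not tested. Leaving out 1 sample at a time, 0 to 1 Twist partners were lower (0 without DMSO replicate 3 or CHIR99021 replicate 2) and 4 to 6 epithelial genes higher (4 without DMSO replicate 3, CHIR99021 replicate 1 or CHIR99021 replicate 2). Depth limits *Twist2* most, with 80 counts over the 4 controls.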
